A study of Mus musculus with 3 samples.

Results

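The transcription factor genes Spi1, Fli1, Cebpa, Cebpb, Cebpd, Maf, Runx1, Mef2a and Mef2c were examined in mouse macrophages. They were chosen by symbol as factors known for making or maintaining the macrophage lineage, and each symbol matched 1 of the 55536 gene rows, so 9 genes in all are described. The RNA came from the cytosolic fraction of bone-marrow-derived macrophages of C57BL/6J mice. The cells had received Lipid A, the membrane anchor of bacterial lipopolysaccharide and a ligand of Tlr4, at 100 ng/ml for 20 min. Total RNA was depleted of ribosomal RNA and sequenced as 3 libraries, labelled biological replicates 1, 2 and 3 of this 1 condition. Sex and age are not given in the labels, and all 3 libraries carry the same donor identifier, so SDs and p-values measure only the spread between these samples, which may be technical. Neither unstimulated cells nor nuclear RNA are analysed here, so no gene is called induced or repressed.

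Macrophages arise from blood stem cells through a short cascade of transcription factors that bind DNA together. In textbook accounts the ETS factor PU.1 opens macrophage enhancers, the C/EBP factors occupy them beside it, Runx1 acts upstream when the blood lineage is set up, and factors of the MAF and MEF2 families shape the mature cell. Several of these genes are also known for making more than 1 protein, through alternative start sites, exons or translation starts, so both levels and transcript forms are given.

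Levels are given in TPM, the relative abundance of transcripts, which divides the reads of a gene by its length and scales each library to a fixed sum. The gene tables held 27392626, 81597761 and 37176950 expected counts, the estimated reads per gene, in replicates 1, 2 and 3. Up to 3 reads can underlie a count of 0, which made 0.110, 0.0368 and 0.0808 CPM the floor of the libraries, for counting error only. Protein-coding genes of the nuclear genome took 25.0%, 22.0% and 19.6% of TPM. TPM was therefore also rescaled to the protein-coding total of each library, and this value is called rescaled TPM. All 10 macrophage markers, such as Lyz2, Cd68 and Csf1r, reached 1 TPM in every library. Of 37 markers of other cell types, 4 did: S100a8 and S100a9 of neutrophils, Pf4 of megakaryocytes, which averaged 163 TPM, and Kdr of endothelium. The summed TPM of the neutrophil list was 17.2 to 25.3, with Ly6g, a marker that defines these cells, at or near 0. In the megakaryocyte list Ppbp was at 0.93, 0.58 and 1.11 TPM in replicates 1, 2 and 3, Itga2b at 0.10 to 0.27 TPM and Gp9 at 0.03 to 0.13 TPM. Cdh5 of the endothelial list was at 0.14 to 0.19 TPM and Pecam1 at 0.13 to 0.21 TPM.

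Detection was set at 1 TPM in each of the 3 libraries. Of the 9 factors 8 were detected, against 16.8% of all gene rows and 40.5% of the 22015 nuclear protein-coding genes. The exception was Cebpd, at 0.91 TPM in replicate 3. On rescaled TPM 9 of 9 passed, against 20.5% of all gene rows and 47.4% of protein-coding genes. The median of the 9 mean levels was 22.0 TPM, against 6.66 TPM over the 9164 protein-coding genes that averaged 1 TPM or more. Together the 9 genes summed to 1245, 1296 and 1320 rescaled TPM in replicates 1, 2 and 3, so the total differed little between libraries. In cytosolic RNA pooled from the cells of a culture, fewer cells of a type and less RNA per cell cannot be told apart.

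**Figure D1:**
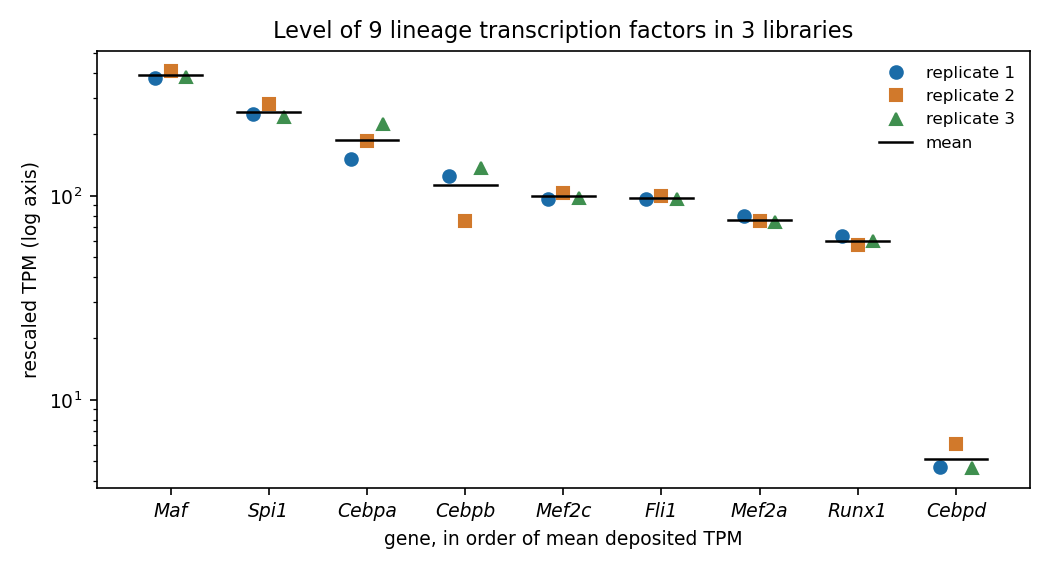
Rescaled TPM of each lineage factor on a log axis, with 1 point per library and a bar at the mean of the 3 libraries. Maf and Spi1 are highest, Cebpd lies far below the other 8 genes, and Cebpb is the gene whose replicate 2 stands apart from replicates 1 and 3.

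Spi1 encodes PU.1, the ETS-family factor without which no macrophages form. The gene (ENSMUSG00000002111.8) lies at chr2:91082390-91115756 on the plus strand of mm10, the build of all deposited tables. It stood at 62.6, 62.3 and 47.7 TPM in replicates 1, 2 and 3, from 4537, 15600 and 5662 expected counts. Replicate 3 was lowest, and after rescaling the values were 251, 283 and 243, so replicate 2 was then highest. Fli1, an ETS factor of blood stem cells, megakaryocytes and endothelium, lies at chr9:32422204-32542861 on the minus strand (ENSMUSG00000016087.13). Its level was 24.0, 22.0 and 18.9 TPM, or 96.3, 99.8 and 96.1 rescaled TPM. In the gene tables those rescaled values lay closer together than for any other of the 9 genes. Their SD was 0.03 on the log2 scale, near the counting error of 0.02 at the lowest depth. Spi1 was 2.66 ± 0.162 times as high as Fli1 by TPM (SD, n = 3), and higher in 3 of 3 libraries.

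Among the 26 genes of the ETS family 15 were detected, and Spi1 was the highest, with 30.2% ± 1.78 of the family's summed TPM. Fli1 followed with 11.4% ± 0.0266. Etv3, a repressor that is linked to growth arrest of macrophages, held 10.4% and Elf1, a factor of blood cells, 9.16%. The closest relatives of Spi1 were much lower by TPM. Spic, the factor of iron-recycling macrophages, was at 3.23, 1.70 and 2.20 TPM, and Spib, which acts in B cells and plasmacytoid dendritic cells, at 0.22, 0.17 and 0.24 TPM. Erg, the closest relative of Fli1, had 0, 5 and 1 expected counts, so it was at the limit of detection. Irf8, the partner that PU.1 recruits to composite sites, stood at 58.9, 51.9 and 46.0 TPM, and the ratio of Spi1 to Irf8 was 1.10 ± 0.0885 (SD, n = 3).

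Spi1 has 4 annotated transcripts and 2 groups of start sites. The main group begins at chr2:91096096 to 91096780 and held 83.4% ± 2.16 of Spi1 TPM in the first transcript table, which was derived from alignments (SD, n = 3). In the second transcript table, which was derived directly from the reads, it held 77.7% ± 2.82. The rest began upstream, at chr2:91082390 to 91082408, and came only from short transcripts outside the basic set of the annotation. Most of it was Spi1-202, a transcript annotated without a coding frame, at 12.6% ± 2.41 in the first table and 13.0% ± 2.12 in the second. In the first table Spi1-202 rested on 184, 479 and 160 expected counts in replicates 1, 2 and 3, and Spi1-204 on 36.5, 149 and 49.9. Spi1-201, of the main group, had 4284, 14886 and 5410. The full-length coding transcript Spi1-201, with 272 codons, held 77.9% and 71.1% in the first and second tables. Spi1-203 and Spi1-204, both short transcripts outside the basic set of the annotation, held 5.46% and 4.05% in the first table and 6.57% and 9.26% in the second. For Fli1, 99.3% and 96.2% of TPM lay in 1 transcript, Fli1-201, in the first and second tables.

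The C/EBP factors are leucine-zipper proteins. Cebpa drives the step from progenitors to myeloid cells, Cebpb acts in mature and activated macrophages, and Cebpd is best known as an acute-phase gene. Cebpa (ENSMUSG00000034957.10, chr7:35119293-35121928, plus strand) stood at 37.8, 40.8 and 44.2 TPM in replicates 1 to 3. The differences widened on rescaling, to 152, 186 and 225, a range of 1.48-fold with replicate 3 highest. Cebpb (ENSMUSG00000056501.3, chr2:167688915-167690418, plus strand) stood at 31.3, 16.5 and 26.9 TPM, from 2016, 3517 and 2728 expected counts. Replicate 2, the deepest library, was lowest for Cebpb by TPM and by rescaled TPM, with 125, 75.0 and 137 rescaled TPM in the first table and 120, 71.5 and 131 in the second. Cebpd (ENSMUSG00000071637.5, chr16:15887286-15891031, plus strand) stood at 1.17, 1.33 and 0.91 TPM, from 208, 777 and 253 counts, and was the lowest of the 9 genes in all 3 libraries.

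As a result the balance of the 2 higher C/EBP genes differed between libraries. Cebpa was 1.21, 2.47 and 1.64 times as high as Cebpb by TPM in replicates 1, 2 and 3, and 1.23, 2.53 and 1.69 times in the second table. Cebpb exceeded Cebpd by 26.8, 12.4 and 29.6 times. Cebpa held 38.7% ± 4.71 of the TPM of the 6 genes of the family, Ddit3, the stress-induced member CHOP, 31.1% ± 4.25, and Cebpb 23.2% ± 5.78 (SD, n = 3). Cebpg, a partner without an activation domain, held 5.97%, and Cebpe, a gene of late granulocytes, had 0, 6 and 7 counts. Trib1, which marks C/EBPα protein for degradation, was also lowest in replicate 2 on the rescaled scale, at 19.7, 12.9 and 20.3. The same held for Id2, an inhibitor of basic helix-loop-helix factors, at 414, 276 and 403, and for Nr1h3, the liver X receptor LXRα, at 37.8, 26.8 and 41.1 rescaled TPM. These 3 were picked after their values were seen, and their relation to Cebpb was not tested.

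**Figure D2:**
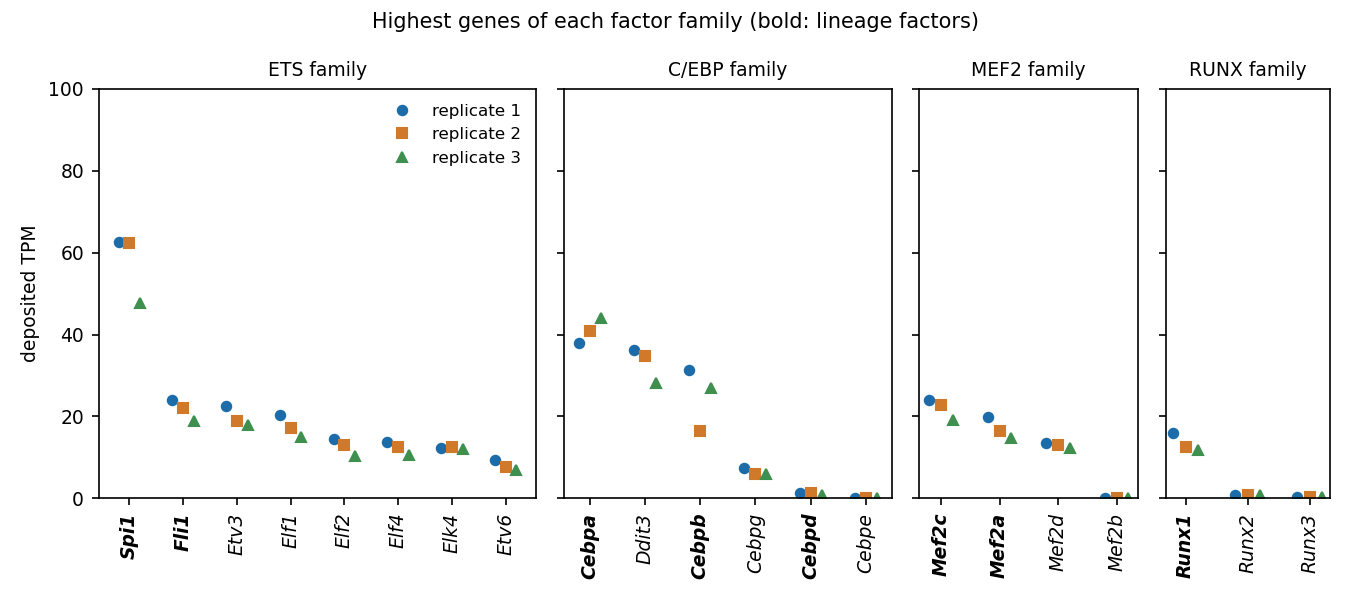
Deposited TPM of the genes of the ETS, C/EBP, MEF2 and RUNX families, up to the 8 highest by mean, with 1 point per library and the names of the lineage factors in bold. Spi1, Cebpa, Mef2c and Runx1 have the highest mean of their families, and Ddit3 lies between Cebpa and Cebpb.

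Cebpb and Cebpd each gave all of their TPM to 1 transcript of a single exon. Both Cebpa and Cebpb are known to make long and short proteins from 1 mRNA by choice of the start codon, which RNA levels cannot show. Cebpa has a second annotated transcript, Cebpa-202, that splices out chr7:35119772-35120246, 475 bases that lie within the frame of Cebpa-201. The length removed is not a multiple of a codon, and the annotated frame of Cebpa-202 has 159 codons, against 359 in Cebpa-201. It held 10.7% ± 1.88 of Cebpa TPM in the first table and 6.16% ± 0.779 in the second (SD, n = 3). The removed stretch is 76.8% G and C. Opposite-strand genes overlap all 3 loci. Tmem189, at 57.7, 50.6 and 48.2 TPM, shares 908 bases with Cebpb, and Spidr, at 1.88, 1.52 and 1.31 TPM, shares 1808 bases with Cebpd. The antisense gene Gm45091 shares 313 bases with Cebpa and had 1, 9 and 4 counts. For the strand of the libraries no source used here gives a setting, and reads of the shared bases cannot be assigned with certainty. On the rescaled scale Tmem189 was at 231, 230 and 245, nearly equal in replicates 1 and 2.

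Maf encodes c-Maf, a large basic-zipper protein that restrains proliferation and maintains mature macrophages. The gene (ENSMUSG00000055435.6, chr8:115682942-115707794, minus strand) was the highest of the 9 in every library. It stood at 94.1, 90.4 and 75.1 TPM in replicates 1, 2 and 3, or 377, 411 and 382 rescaled TPM, from 25655, 80003 and 32570.2 expected counts. Its level exceeded that of 95.9% of the 9164 protein-coding genes. The small MAF genes Mafg and Mafk, which lack an activation domain and pair with other zipper proteins, were much lower, at 10.4, 9.58 and 9.92 TPM for Mafg and 6.46, 5.86 and 4.93 TPM for Mafk.

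Maf is transcribed in an unspliced form, Maf-202, with 370 codons, and a spliced form, Maf-201, whose last coding bases come from a downstream exon. Maf-202 held 76.9% ± 2.52 of Maf TPM in the first table and 78.2% ± 2.66 in the second, and Maf-201 the other 23.1% and 21.8% (SD, n = 3). The spliced form was lowest in replicate 3 in both tables. The end of its 380-codon frame is printed because these bases distinguish the longer protein, with the 31 bases of the downstream exon, chr8:115693162-115693192 on the minus strand, in capitals after 6 bases of the first exon:
Maf-201 spliced tail: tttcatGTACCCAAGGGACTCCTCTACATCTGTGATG
Gm15655, an antisense gene that lies within the Maf locus over 2156 bases, stood at 25.7, 38.9 and 42.8 TPM, from 270, 1455 and 756 counts. It was lowest in replicate 1, in which Maf was lowest after rescaling and highest before it. As for Cebpb, reads of the shared bases cannot be assigned with certainty. Opposite-strand genes also overlap Mef2a, Runx1 and Fli1: Lysmd4 at 1.19 to 1.69 TPM, Gm26626 with at most 5 counts and Gm27201 with at most 1 count.

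Runx1 encodes the DNA-binding partner of Cbfb and is required when blood stem cells emerge from endothelium. It lies at chr16:92601466-92826149 on the minus strand (ENSMUSG00000022952.17) and stood at 15.9, 12.6 and 11.8 TPM in replicates 1, 2 and 3, or 63.8, 57.1 and 60.0 rescaled TPM. Runx1 held 92.2% ± 0.427 of the TPM of its family (SD, n = 3). Runx2, the factor of bone formation, was at 0.89, 0.79 and 0.71 TPM, and Runx3, known in T cells, at 0.37, 0.33 and 0.29 TPM. Both were below 1 TPM in every library and above 1 rescaled TPM in every library. Cbfb stood at 15.6, 13.7 and 13.2 TPM. Runx1 to Cbfb was 0.945 ± 0.0698 by TPM, with 1.02, 0.918 and 0.892 in replicates 1, 2 and 3. In the second table the ratio was 1.10 ± 0.0694, with 1.15, 1.13 and 1.02. Which of these partners was higher thus depended on the table and, by the TPM of the gene tables, on the library.

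Runx1 is known for 2 promoters about which the reads of its first exons inform. The distal promoter, called P1, is typical of established blood cells, and the proximal one, P2, is active in early development. The outermost 5' ends of the 2 groups of transcripts are 128821 bases apart. Transcripts of the distal group held 79.2% ± 1.29 of Runx1 TPM in the first table, with 80.3%, 79.6% and 77.8% in replicates 1, 2 and 3 (SD, n = 3). In the second table they held 75.1% ± 2.16, with 77.3%, 73.0% and 75.0%. Among the transcripts of the basic set alone, the distal share was 78.1% ± 0.487 in the first table and 68.3% ± 3.42 in the second. The distal form therefore made up most of Runx1 RNA in each of the 6 estimates, and all 3 libraries lay close together.

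The first coding bases of both forms are printed because they give the proteins their different beginnings. Capitals mark the form's own bases, and the 6 bases in lower case begin the exon that both share. The distal piece of 58 bases lies at chr16:92825589-92825646 and the proximal piece of 16 bases at chr16:92695738-92695753, both on the minus strand:
Runx1 distal first coding bases: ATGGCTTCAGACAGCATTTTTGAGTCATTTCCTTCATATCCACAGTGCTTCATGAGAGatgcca
Runx1 proximal first coding bases: ATGCGTATCCCCGTAGatgcca
The 2 promoters differ in base composition, as the 175 bases upstream of the annotated start of each group show. These come from RefSeq's promoters for GRCm38.p6, with every CG pair in capitals, chr16:92826150-92826324 for the distal and chr16:92697330-92697504 for the proximal one:
Runx1 distal promoter: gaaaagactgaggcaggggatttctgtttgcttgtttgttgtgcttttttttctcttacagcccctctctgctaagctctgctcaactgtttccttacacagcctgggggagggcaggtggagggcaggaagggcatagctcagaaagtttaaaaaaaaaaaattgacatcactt
Runx1 proximal promoter: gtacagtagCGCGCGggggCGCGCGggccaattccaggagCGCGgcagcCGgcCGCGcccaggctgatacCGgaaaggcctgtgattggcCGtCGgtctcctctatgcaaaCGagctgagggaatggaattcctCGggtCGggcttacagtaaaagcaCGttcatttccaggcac
The distal stretch holds 0 CG pairs and 45.1% G and C, and the proximal stretch 18 CG pairs and 62.9%. Over the full 250 bases before the RefSeq start the numbers of CG pairs were 2 for the distal and 27 for the proximal window, against a median of 6 over the 32851 windows of the table. So the window of the more abundant start is poor in CG pairs and the window of the less abundant start is rich in them. Of the 9 factors 5 had windows in the table, 8 windows in all. None of these held TGTGGT, a RUNX core site, or GAGGAAGT, a site of the kind that PU.1 binds, on either strand. Of all windows of the table, 14.0% held the first motif and 2.44% the second.

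Within the coding frame, Runx1 can skip an exon of 192 bases, or 64 codons, behind the DNA-binding domain, at chr16:92644154-92644345. Of the 3 coding transcripts that span it, the 2 that keep it held 79.2% ± 1.72 of their TPM, with 77.9%, 81.2% and 78.7% in replicates 1, 2 and 3 (SD, n = 3). In the second table the share was 74.7% ± 3.67. The spanning transcript without the exon is Runx1-202, of the proximal start, and most of the TPM with it is Runx1-201, of the distal start. The share therefore largely repeats the distal share of the basic set, at the same 77.9% and 78.7% in replicates 1 and 3 of the first table. It is no separate estimate of exon skipping. The exon is printed in capitals because its loss shortens the protein without a change of frame:
Runx1 internal exon: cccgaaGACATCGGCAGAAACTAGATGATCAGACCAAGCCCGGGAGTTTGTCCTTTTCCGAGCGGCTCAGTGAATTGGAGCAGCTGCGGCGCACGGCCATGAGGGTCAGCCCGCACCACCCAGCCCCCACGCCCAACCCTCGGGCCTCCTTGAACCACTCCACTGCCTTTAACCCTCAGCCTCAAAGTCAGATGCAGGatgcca
The full transcript of the distal form, Runx1-201, held 63.2% ± 3.42 of Runx1 TPM in the first table and 47.6% ± 0.529 in the second. The tables also disagreed on Runx1-204, a fragment of 336 bases from the distal start, at 11.6% and 23.6%. In the first table its share rested on only 14.1, 27.6 and 9.86 expected counts in replicates 1, 2 and 3. Runx1-201 had 2750, 7863 and 3246. Runx1-202, from the proximal start, held 16.7% and 17.5%.

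Mef2a and Mef2c encode MADS-box proteins that bind the same sites and are switched by MAP kinases and class II histone deacetylases. In the blood lineage Mef2c is best known from lymphoid and myeloid progenitors, and in macrophages Mef2 factors are known for control of inflammatory genes. Mef2c (ENSMUSG00000005583.16, chr13:83504034-83667080, plus strand) stood at 24.1, 22.8 and 19.2 TPM in replicates 1, 2 and 3, or 96.5, 103 and 97.8 rescaled TPM. Mef2a (ENSMUSG00000030557.17, chr7:67231163-67372858, minus strand) stood at 19.8, 16.5 and 14.7 TPM, or 79.3, 75.0 and 74.8 rescaled TPM. Both were highest in replicate 1 by deposited TPM and nearly level after rescaling. Mef2c held 42.3% ± 1.01 of the family's TPM, Mef2a 32.6% ± 1.62 and Mef2d 25.0% ± 1.48 (SD, n = 3), while Mef2b had 0, 1 and 1 counts. Mef2c was 1.30 ± 0.0812 times as high as Mef2a by TPM and higher in 3 of 3 libraries, and 1.42 ± 0.0821 times in the second table. By expected counts, which are not divided by length, the order of these 2 genes was not the same, since Mef2a had 4729, 12599.8 and 5504 counts and Mef2c 4184, 12448 and 5310. Of their regulators, Mapk14, the kinase p38α, stood at 24.6, 20.5 and 17.5 TPM, and Hdac5 at 14.5, 14.3 and 13.4 TPM. Hdac7 and Hdac9 were below 1 TPM in every library.

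Both Mef2 genes carry a pair of alternative exons just behind the DNA-binding domain. In each gene the exons follow each other, and coding transcripts carry mostly one or the other. The second exon of the pair, often called α2, is known from muscle, and the first, α1, from most other tissues. In Mef2a the first exon, 132 bases at chr7:67268269-67268400, held 84.1% ± 2.37 of the TPM of coding transcripts that span the pair (SD, n = 3). Values were 84.1%, 81.8% and 86.5% in replicates 1, 2 and 3. The second table gave 80.5%. In Mef2c the first exon, 144 bases at chr13:83625265-83625408, held 74.1% ± 2.06, with 74.3%, 72.0% and 76.1%. The second exon, 138 bases at chr13:83625470-83625607, held 25.6% ± 1.90. The second table gave 80.4% and 19.0%. These shares leave out Mef2c fragments that end inside either exon. Mef2c-217, at 24.8% and 20.6% of Mef2c TPM in the first and second tables, ends at chr13:83625535, inside the second exon. Mef2c-206, at 0.411% and 2.08%, also ends inside the second exon. Mef2c-207 and Mef2c-216 end inside the first, with 0 TPM in the first table and 0.578% and 2.69% in the second. With Mef2c-217 counted, the second-exon share of Mef2c would be higher. Among spanning transcripts Mef2a had the higher first-exon share in 3 of 3 libraries of the first table. In the second table the means of both genes were nearly equal, with Mef2a higher in 2 of 3 libraries. In both genes and both tables the first exon was lowest in replicate 2 and highest in replicate 3. The first exon of Mef2a and both exons of Mef2c are printed because the exon choice is a main difference between the Mef2 forms present, with the alternative exon in capitals between 6 bases of each neighbour:
Mef2a first exon of the pair: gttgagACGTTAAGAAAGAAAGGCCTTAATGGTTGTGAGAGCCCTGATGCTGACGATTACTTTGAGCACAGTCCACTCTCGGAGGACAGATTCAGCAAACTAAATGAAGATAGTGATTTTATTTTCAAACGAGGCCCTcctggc
Mef2c first exon of the pair: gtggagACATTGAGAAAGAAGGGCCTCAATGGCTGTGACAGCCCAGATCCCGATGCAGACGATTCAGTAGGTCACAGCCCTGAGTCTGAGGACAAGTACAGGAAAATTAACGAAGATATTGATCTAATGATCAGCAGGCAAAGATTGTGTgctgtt
Mef2c second exon of the pair: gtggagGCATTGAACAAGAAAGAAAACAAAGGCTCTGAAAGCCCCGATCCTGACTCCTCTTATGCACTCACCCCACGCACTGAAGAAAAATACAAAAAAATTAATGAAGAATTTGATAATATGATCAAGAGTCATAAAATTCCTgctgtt

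Further along, both genes have an exon of 24 bases, or 8 codons, known as the β exon and prominent in brain and muscle. Mef2a transcripts with this exon, at chr7:67244521-67244544, held 67.8% ± 4.53 of spanning coding TPM in the first table and 51.7% ± 4.12 in the second (SD, n = 3). For Mef2c, with the exon at chr13:83654598-83654621, the shares were 65.4% ± 4.28 and 61.2% ± 5.42. The exon was thus kept in most of the spanning TPM of Mef2c in both tables, while for Mef2a the second table gave 53.2%, 47.1% and 54.9% in replicates 1, 2 and 3. These exons, identical at 17 of 24 bases, are in capitals:
Mef2a short exon: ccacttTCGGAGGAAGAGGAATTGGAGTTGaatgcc
Mef2c short exon: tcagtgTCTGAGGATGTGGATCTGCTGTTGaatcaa
Mef2c has a further choice, a longer last coding exon that adds 96 bases at chr13:83662307-83662402, known as the γ region and described as repressive. It was present in 19.8% ± 2.12 of spanning coding TPM in the first table and 23.0% ± 3.59 in the second.

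Mef2c also begins at several places. Of its 31 annotated transcripts, those that begin between chr13:83523473 and 83524920 held 41.9% ± 1.55 of TPM, those between 83572348 and 83575677 held 38.7% ± 1.19, and those at the outermost start, 83504034 to 83504240, held 9.95% ± 0.405 (SD, n = 3). In the second table the shares were 47.9%, 34.3% and 5.75% in the same order. Among transcripts of the basic set alone the order changed, with 16.6%, 65.9% and 17.4% in the first table and 33.1%, 56.3% and 10.5% in the second. The leading transcript was Mef2c-212, of the innermost of these starts, at 37.5% and 30.2% in the first and second tables. Mef2c-217, a fragment of 689 bases that begins between 83523473 and 83524920, followed at 24.8% and 20.6%. In the first table its share rested on 146, 405 and 181 expected counts in replicates 1, 2 and 3. Mef2c-212 had 2700, 8067 and 3396. Mef2c-201 held 9.95% and 5.09%, and Mef2c-230 held 9.45% and 8.80%. Mef2c-215, Mef2c-227 and Mef2c-223 held 6.26%, 3.47% and 2.61% in the first table and 5.59%, 9.55% and 7.69% in the second. In Mef2a 97.8% of TPM began at 1 place. Mef2a-208 held 65.7% and 49.4% in the first and second tables. Mef2a-204 held 15.8% and 27.4% and Mef2a-203 15.4% and 17.0%, and both lack the short exon. Mef2a-203 also carries the second exon of the pair, so the shares of the pair and of the short exon are partly linked in Mef2a.

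**Figure D3:**
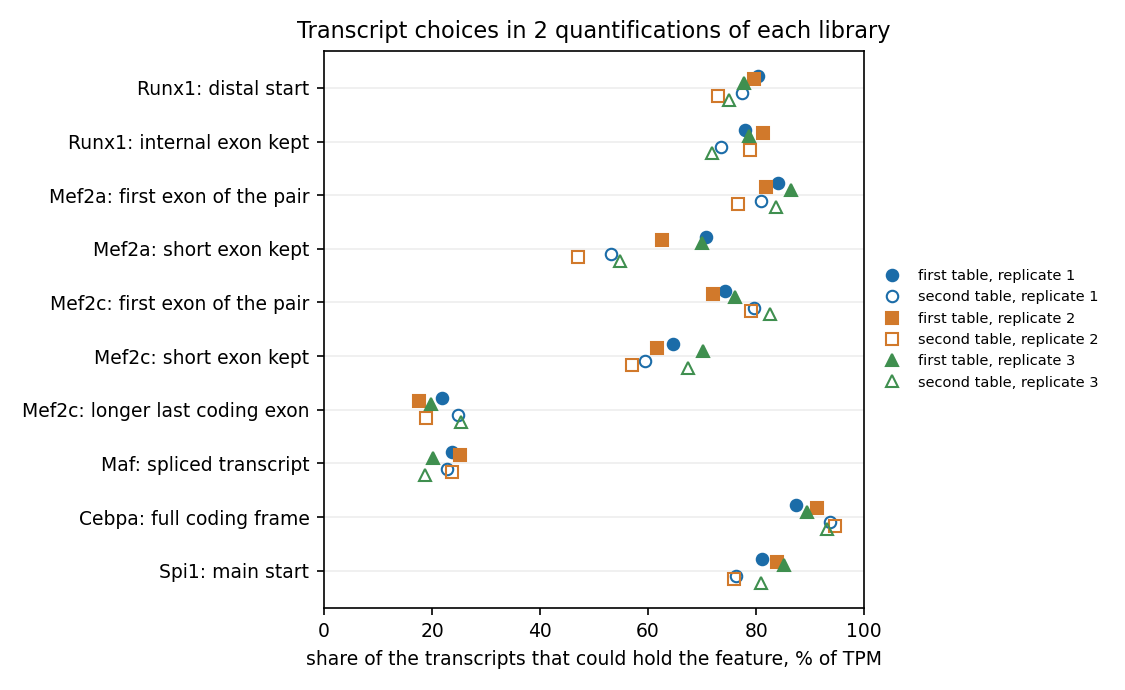
Share of TPM of each transcript form, in % of the transcripts that could hold it, for each library in the first transcript table (filled) and the second (open). The 3 libraries of 1 table lie furthest apart for the short exon of Mef2c, at 59.4%, 57.0% and 67.3% in the second table. The filled and open points separate most for the short exon of Mef2a. For Runx1 the start and the internal exon are not separate choices, since the spanning transcript without the exon has the proximal start. The Mef2a shares are partly linked, since Mef2a-203 carries the second exon of the pair and lacks the short exon.

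Transcripts annotated with a retained intron were a small part of Runx1, Mef2a and Mef2c and followed the same order of libraries in each. They held 1.57%, 0.955% and 3.22% of Runx1 TPM in replicates 1, 2 and 3. For Mef2a, with 4 such transcripts, the shares were 2.32%, 1.21% and 5.17%, and for Mef2c, with 3, they were 0.913%, 0.703% and 3.33%. Replicate 3 was highest and replicate 2 lowest in all 3 genes, and in the second table too. The nuclear noncoding RNA Malat1 showed the same order, at 1439, 1127 and 3884 rescaled TPM, as did Neat1, which builds nuclear paraspeckles, at 127, 107 and 427. The 4 short genes of the annotation's class TEC that lie within Fli1 on its own strand were also highest in replicate 3, Gm38346 for example at 1.00, 0.591 and 2.85 rescaled TPM. The part that nuclear RNA had in these values was not tested. The whole-gene levels of Runx1, Mef2a and Mef2c did not follow this order, and none of the 3 was highest in replicate 3.

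**Figure D4:**
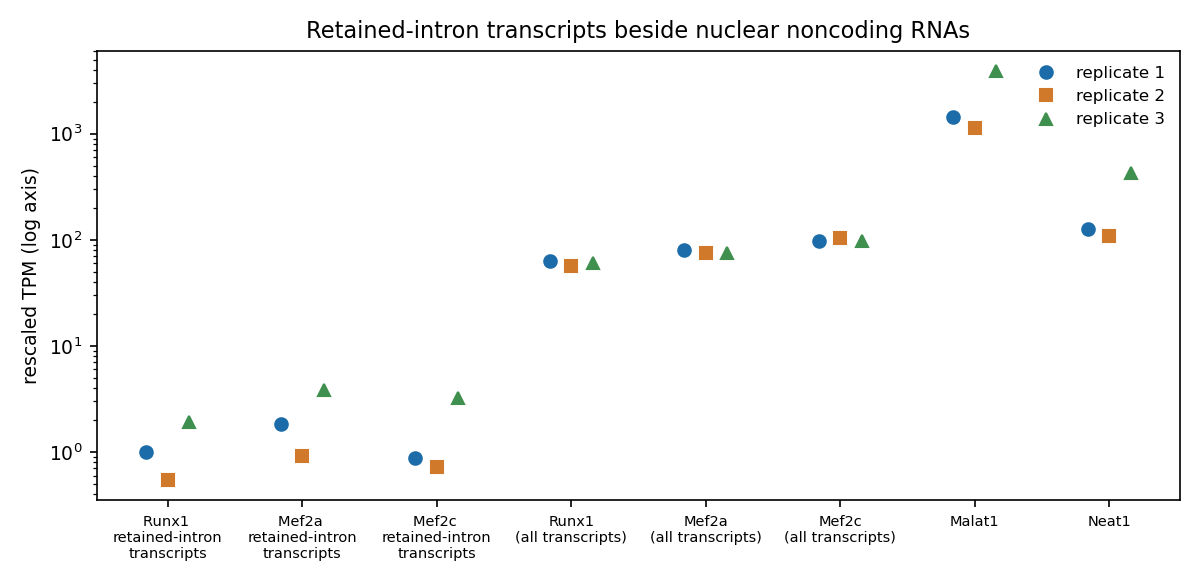
Rescaled TPM on a log axis, by library, of the retained-intron transcripts of Runx1, Mef2a and Mef2c, of all transcripts of these genes, and of Malat1 and Neat1. Replicate 3 is highest for the retained-intron transcripts and both noncoding RNAs, while the whole genes lie nearly level.

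The order of the 9 levels was compared within each library, so that no scaling of a library enters. Of the 8 pairs of neighbours in the order of mean TPM, 7 had the same order in all 3 libraries. Maf exceeded Spi1 by 0.59 ± 0.06 log2 units, Fli1 exceeded Mef2a by 0.35 ± 0.07 and Mef2a exceeded Runx1 by 0.34 ± 0.04 (SD, n = 3). Runx1 exceeded Cebpd by 3.57 ± 0.29, so Cebpd stood apart from the other 8. These 4 differences were larger than 2 SD. The other 4 were not: Spi1 over Cebpa at 0.48 ± 0.33, Cebpa over Cebpb at 0.76 ± 0.52, Cebpb over Mef2c at 0.13 ± 0.52, and Mef2c over Fli1 at 0.03 ± 0.02. Cebpb was above Mef2c in replicates 1 and 3 and below it in replicate 2. Mef2c and Fli1 differed by no more than the counting error of 0.03 in 2 of 3 libraries by the TPM of the gene tables. In the second transcript table Mef2c exceeded Fli1 by 0.17 log2 units on average, so how near these 2 genes lay depended on the table. A two-sided exact sign-flip permutation test over 3 libraries cannot go below p = 0.25. It gave that value for the 7 pairs with 1 order, or 0.286 after Benjamini-Hochberg adjustment over 8 pairs, and 0.75 for Cebpb and Mef2c.

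Between libraries 5 of the 9 genes varied less than the median protein-coding gene, which is near the share that a median fixes for all genes. The SD of log2 rescaled TPM was 0.03 for Fli1, 0.05 for Mef2a, 0.05 for Mef2c, 0.07 for Maf and 0.08 for Runx1, and their median over the 9 was 0.08, against 0.10 over the 9164 protein-coding genes. Spi1 had 0.12, Cebpd 0.22, Cebpa 0.28 and Cebpb 0.47. In the second transcript table, rescaled alike, Mef2a had 0.0186, Runx1 0.0242 and Fli1 0.0456, so Fli1 did not have the smallest SD there. Levels differ between genes, so each was also set beside protein-coding genes within 0.5 log2 units of its own mean. Of 1039 such genes 98.7% had a smaller SD than Cebpb, and of 613 such genes 94.9% had a smaller SD than Cebpa. The share was 59.4% for Spi1, 66.1% for Cebpd, 47.8% for Runx1, 26.2% for Maf, 25.3% for Mef2c, 23.5% for Mef2a and 9.90% for Fli1. On TPM as deposited the order of the SDs was another: Cebpa had the smallest of the 9, at 0.11, and Cebpb the largest, at 0.48. The side of the median gene on which the 9 genes lay also depended on the scale and the libraries. Without replicate 2 the median SD of the 9 genes was 0.03, against 0.09 over all genes, and without replicate 3 it was 0.11, against 0.08. On deposited TPM it was 0.22, against 0.19.

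**Figure D5:**
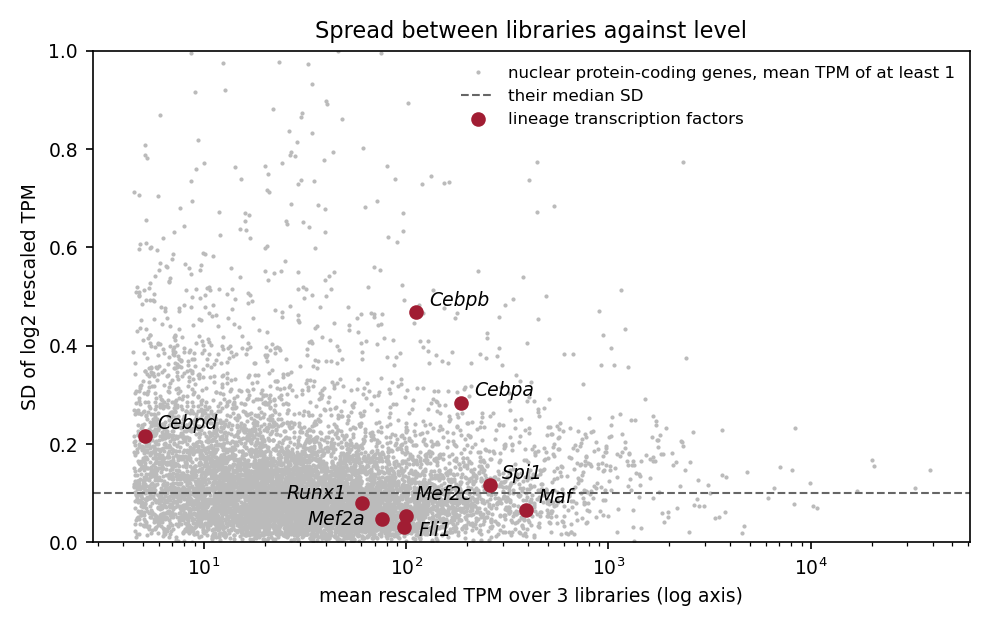
SD of log2 rescaled TPM over the 3 libraries against mean rescaled TPM on a log axis, for the lineage factors (red) and 9164 nuclear protein-coding genes (grey), of which 21 lie above the plotted range. Cebpb and Cebpa lie high for their level on this scale, while on deposited TPM Cebpa has the smallest SD of the 9. Fli1 lies near the bottom of the cloud, and Mef2a, Mef2c and Maf lie in its lower part.

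Of 18 cofactors and regulators of the 9 factors 12 were detected, and by mean TPM Id2, the acetyltransferase gene Ep300, at 26.7, 20.3 and 20.3 TPM, and Mapk14 were the highest. Other factors of the macrophage lineage were present beside the 9 genes. Of 13 such genes 12 were detected, and the exception was Klf4, at 0.67, 0.89 and 0.44 TPM. Zeb2, a repressor of other blood fates, was highest at 81.3, 69.8 and 64.0 TPM, above Spi1 and below Maf in each library. Factors of other blood lineages were near the limit, with 16 of 18 below 1 TPM in every library and a median of 0.0333 TPM. The exceptions were Tal1, a stem cell and erythroid factor, at 1.66, 1.47 and 1.18 TPM, and Batf3, a dendritic cell factor, at 1.52, 1.05 and 1.60 TPM. Gata1 and Pax5, the factors of erythroid and B cells, had at most 2 and 7 counts. Of 17 textbook targets of PU.1 and C/EBP proteins 15 were detected, among them Csf1r at 260, 202 and 180 TPM. The 2 others were Mpo and Elane, granule genes of progenitors and granulocytes, each below 1 TPM in all libraries.

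For each of the 9 genes the protein-coding gene with the most similar rescaled values over the 3 libraries was looked up, by Euclidean distance of log2(rescaled TPM + 0.1). With 3 libraries and 9164 genes searched, a close match is a description of level more than of pattern. Nt5c was nearest to Mef2a at a distance of 0.00991, Dnm2 to Mef2c at 0.0170, Capns1 to Maf at 0.0207, Hbp1 to Runx1 at 0.0259 and Trpc4ap to Fli1 at 0.0275. Coro1b was nearest to Spi1 at 0.0412, Tjp3 to Cebpd at 0.0601 and Rsrp1 to Cebpa at 0.109. Cebpb had the most distant neighbour, Bcl2a1b at 0.248.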

How the data were processed

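Each library came with a gene table and 2 transcript tables made against GENCODE M21 for mm10. Per the file headers and deposited notes, 1 transcript table and the gene table rest on reads aligned to transcripts, and the other transcript table was made from the reads without such alignments. Tools, versions and strandedness are not stated in these sources. The authors' expected counts estimate reads and can be fractional. The authors' TPM values have a fixed sum in each library, and the deposited FPKM and posterior mean TPM served as alternatives. Ddit3 has 2 identifiers, of which the one with the higher mean TPM was used. Rows that name no gene held 0.402%, 0.108% and 0.122% of counts and were left out. Symbols and transcript names were read from the identifiers of the second transcript table, coordinates, transcript types and coding frames from GENCODE M21, exon sequences from the GENCODE M21 transcripts, and promoters from RefSeq's table for GRCm38.p6.

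Rescaled TPM is TPM divided by the library's nuclear protein-coding total and multiplied to the usual TPM sum. An exon's share is the TPM of protein-coding transcripts that hold it over the TPM of those that span it, or that span both exons of a pair. Starts within 2000 bases were grouped. The libraries were compared over genes with summed counts of at least 20, and chi-square per degree of freedom was 45.5 to 64.5, so none is a copy of another. For alternatives, expected counts were rounded to whole numbers and normalised with TMM in edgeR 4.0.16 (factors 1.04, 0.991 and 0.975) or size factors in DESeq2 1.42.0, and log2 values were compared. Python 3.11.15, pandas 2.3.3, numpy 2.4.6 and scipy 1.17.1 were used. The SD calculation was tested on simulated data. There is 1 condition, hence no comparison of conditions. All 9 genes were named, with the 3 highest genes of other lists, family members, exceptions to counts, transcripts of at least 5% in either table, nearest genes and overlapping genes; other genes were picked after their values were seen. Some items are not reported here. The genes, lists and tests were chosen with earlier results of these data known.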

Additional observations from a re-analysis of the deposited data

How the results depend on the processing

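The number of detected factors was 8 or 9 under every alternative run, 9 by FPKM, by rescaled TPM, at a limit of 0.5 TPM and without replicate 3, and 8 otherwise. The median level of the 9 genes depended on the unit: it was 43.8 in FPKM, 9.28 TPM in the second transcript table and 99.3 rescaled TPM; leaving out 1 library moved it by less than the spread between libraries. The median spread was 0.22 on TPM as deposited, against 0.19 over all genes, and from 0.032 to 0.113 with 1 library left out. On the deposited scale, and without replicate 3, the 9 genes therefore varied more than the median gene. With TMM, DESeq2's size factors, the second table or a pseudocount of 1 the median spread stayed between 0.07 and 0.08. Of the 8 neighbour pairs 7 kept 1 order in every library in the second table and by posterior mean TPM, and 5 by expected counts. Counts are not divided by length, and on them 3 pairs turned: the log2 ratio was -0.26 for Fli1 to Mef2a, -0.18 for Spi1 to Cebpa and -1.28 for Cebpb to Mef2c. Cebpb was below Mef2c in the second table, at -0.09, and without replicate 3, at -0.04. The log2 ratio of Mef2c to Fli1 rose from 0.03 to 0.17 in the second table and to 0.08 by posterior mean TPM. All 9 leading transcripts were the same in both transcript tables and without any 1 library, but 16 of 24 named transcript shares moved by more than 1 SD in the second table. Cebpb has only 1 annotated transcript, so its leader could not change. Within a library FPKM is proportional to TPM. Transcript shares by FPKM therefore repeated those by TPM apart from rounding and are no separate check. All 5 families were led by one of the 9 genes under the alternatives run, except by counts, where Etv3 led the ETS family and Mef2a replaced Mef2c. No paired analysis was possible because there is 1 group. Depth limits Cebpd most, with a counting error of 0.10 log2 units in replicate 1.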
